A study of Mus musculus with 26 samples.

Results

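The 10 Kruppel-like factors Klf2, Klf3, Klf4, Klf5, Klf6, Klf7, Klf9, Klf10, Klf11 and Klf13 were followed library by library in mouse 4T1 mammary carcinoma cells that had or lacked the long noncoding RNA MaTAR25. The members were chosen by their measured values in these same counts, and the choice rests on the low Klf6 level of the KO1 clone. They are 10 of the 45318 genes of the count tables and 10 of the 15023 genes tested, so all 10 passed the filter on low counts. The control group held 2 libraries of cells with the wild-type genotype, the KO1 group 3 libraries of a first MaTAR25 knockout clone and the KO2 group 4 libraries of a second. All 9 came from poly(A) RNA of untreated cultured cells, and per the study's methods the knockout clones carried a homozygous Cas9 deletion around the MaTAR25 start made with pairs of guides, whereas the control cells received a guide against Renilla luciferase. Each knockout group is 1 single-cell clone, so clone and deletion cannot be told apart within it, and the labels do not say whether libraries of a group were separate cultures: p-values measure the spread between these libraries only.

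Kruppel-like factors are transcription factors that bind GC-rich and CACCC sequences through a carboxy-terminal set of C2H2 zinc fingers nearly alike across the family, while their amino-terminal parts differ and decide whether a promoter is activated or silenced. Klf2, Klf4, Klf5, Klf6 and Klf7 mostly activate, Klf3 recruits the corepressor CtBP, and Klf9, Klf10, Klf11 and Klf13 recruit the corepressor Sin3a. In mammary and other epithelia these factors are known for opposing roles in proliferation and differentiation, and several are induced quickly by serum or growth factors. Gene positions below are those of GENCODE vM21 on GRCm38.

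The libraries held 25367211 to 61110585 counts on genes, and 33.9% to 37.0% of all counts were not assigned to a gene. Most of these were reads without a unique alignment, 24.1% to 27.5% of all counts. MaTAR25 itself, named 1200007C13Rik in the annotation, was covered by 35 and 30 reads in control, by 2, 7 and 0 in KO1 and by 11, 1, 9 and 6 in KO2 (log2 fold change -3.39 and -2.26, edgeR adjusted p = 0.0341 and 0.0785). All 6 epithelial markers had counts in every library, and their summed level was 3580 to 3784 CPM (counts scaled to library size and to a fixed total) in control, 4983 to 7193 in KO1 and 2113 to 4322 in KO2. The markers did not move together in KO1. Krt7 read 767 and 812 CPM in control and 2643 to 3348 in KO1, and Krt8 was also higher. Epcam (418 to 442, control 460 and 485) and Cdh1 (578 to 670, control 759 and 940) were lower in every KO1 library. Krt14 and Krt18 were not on 1 side of control. Immune markers summed to at most 0.927 CPM and endothelial markers to at most 1.68 CPM in any library. The 4 fibroblast markers summed to 11.7 to 46.9 CPM, with Dcn, Lum and Thy1 at 0 throughout.

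Levels between genes can be compared only per length, here as CPM per kilobase of exon (RPKM). In control cells Klf6 was the most abundant factor at 125.9 RPKM, followed by Klf3 at 20.0, Klf5 at 19.1, Klf9 at 15.0, Klf10 at 13.4, Klf4 at 10.6, Klf13 at 6.85, Klf7 at 5.32, Klf2 at 4.54 and Klf11 at 3.98 (means, n = 2). Klf3 and Klf5 overlapped between the 2 control libraries, and the other neighbours in this order did not. Summed over the 10 factors, the level was 225 ± 7.95 RPKM in control (SD, n = 2), 108 ± 8.90 in KO1 (n = 3) and 166 ± 36.6 in KO2 (n = 4). Klf6 made up 56.0% ± 1.17 of that sum in control, 44.6% ± 1.79 in KO1 and 54.2% ± 2.83 in KO2 (SD). Every KO1 library thus carried a smaller total of these 10 factors than every other library. KO2 replicate 3, at 219.9 RPKM, was the only knockout library to reach the lower control value of 219.1. The choice of members rests on the low Klf6 of KO1, and Klf6 is the largest part of the sum. The lower KO1 sum therefore follows from the choice, and nothing is read from it. It is also no total of the whole family, since Klf16, at 19.1 RPKM in control, is outside it.

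**Figure D1:**
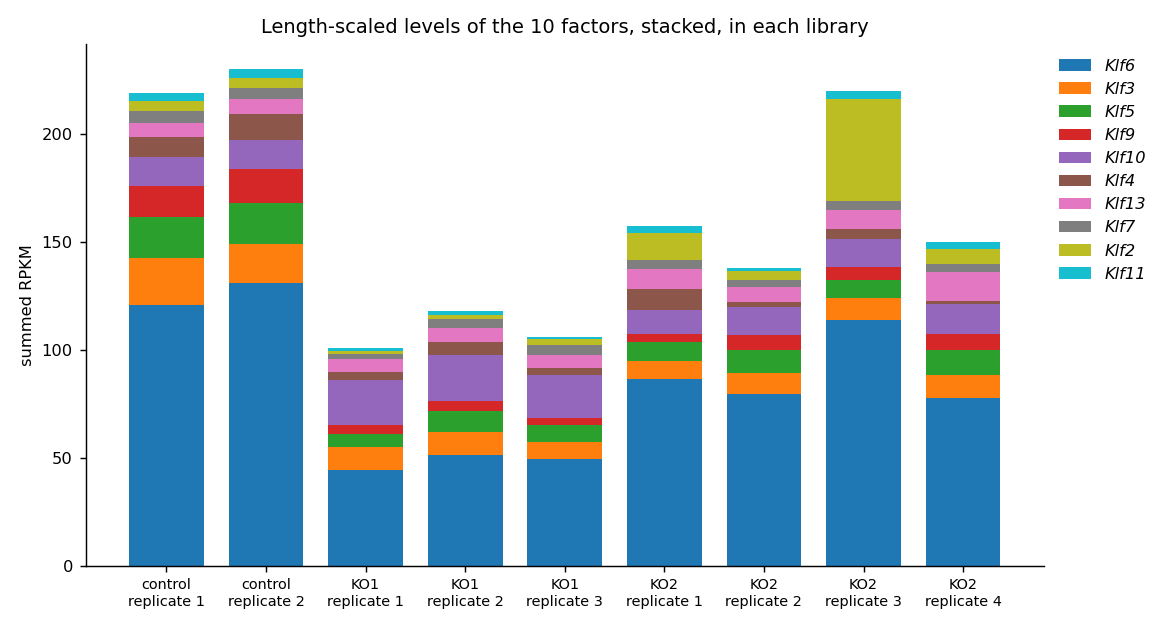
Stacked bars give the RPKM of each of the 10 factors in each of the 9 libraries, the bar height being their sum. Klf6 is the largest block in every bar, the 3 KO1 bars (100.7 to 118.1) are the lowest, and the tall KO2 replicate 3 bar holds a large Klf2 block of 21.4%.

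In KO1, every library lay below both control libraries for 9 of the 10 factors and above both for Klf10. Over all genes tested, 33.7% had every KO1 library below both controls and 33.2% had every one above, and 15.7% were called lower and 15.9% higher at an adjusted p under 0.1; because the KO1 contrast chose the members, nothing is read from their count and no p is given for them there. The median over the members, on the log2 scale, stood at -1.18 (KO1) and -0.49 (KO2), and that of all genes tested was 0.02 and 0.03. These medians are description only, and no shift of the family is read from them, since the members were chosen from these counts. In KO2, 5 factors (Klf3, Klf5, Klf6, Klf7, Klf9) lay below both controls in all 4 libraries, 1 (Klf13) lay above and 4 overlapped, beside 24.1% of all genes below and 22.8% above. Of the 9 factors other than Klf6, 3 fell in KO2 (Klf3, Klf5 and Klf9) and 0 rose by edgeR. That is 33.3% beside 15.0% of all genes called lower and 16.5% called higher. The rule named a KO1 value, but the members were chosen with earlier results of these counts known. No enrichment of the family is therefore read from this share. DESeq2 also called 0 of the 9 higher, and 0 were higher at an unadjusted p under 0.05. Both contrasts use the same 2 control libraries, so the values in KO1 and KO2 are set side by side and are not independent. The KO2 adjusted p-values of single members reuse these controls, which entered the choice. They are thus no independent test of members chosen from these counts.

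**Figure D2:**
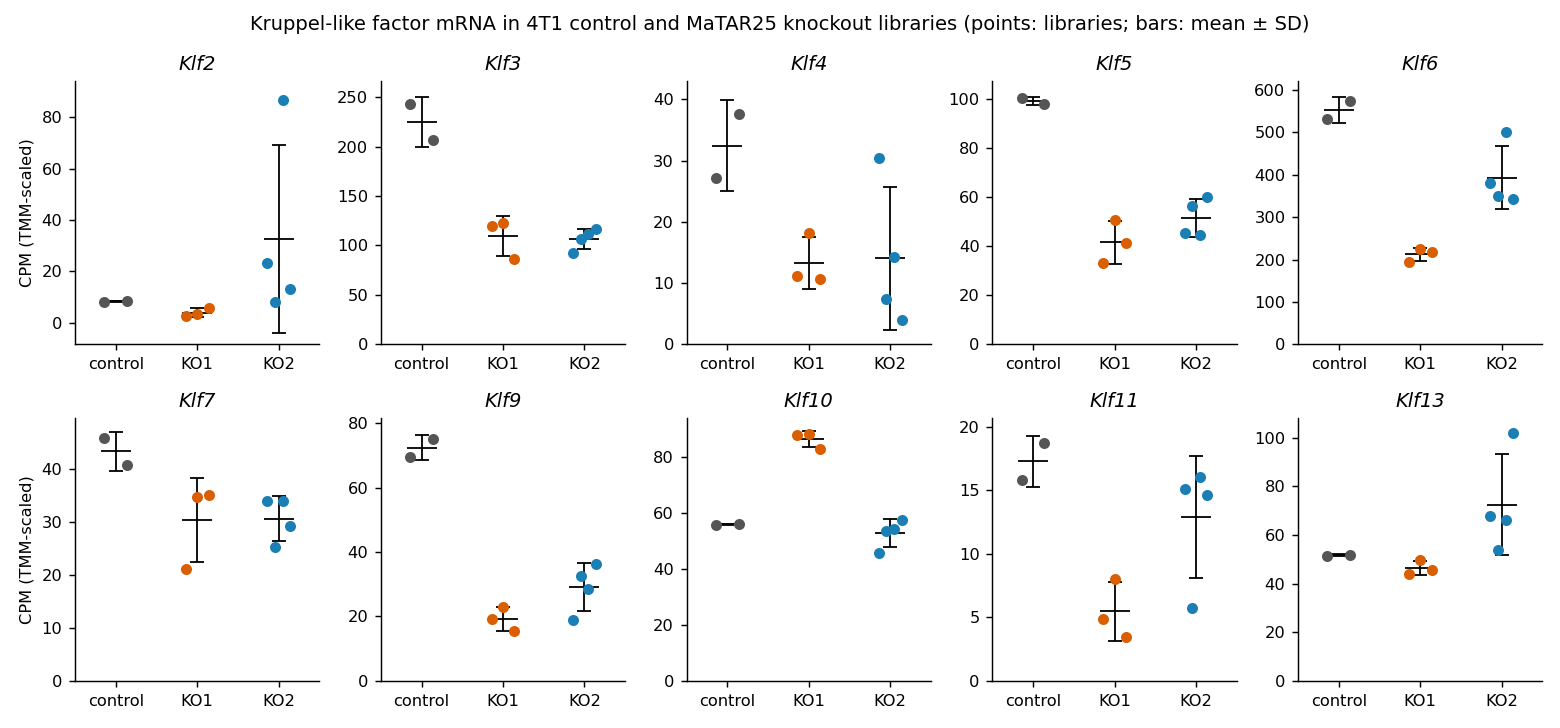
Points are single libraries and horizontal marks with bars the mean ± SD, in TMM-scaled CPM, 1 panel per factor. Klf3, Klf5 and Klf9 sit below both controls in both clones, Klf10 sits above both controls in KO1 and overlaps them in KO2, and Klf2 and Klf4 scatter widely among the KO2 libraries.

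Klf6, an activator first described as a core promoter-binding protein and known as a tumor suppressor in several carcinomas (chr13:5861482-5870394, plus strand), read 530.9 and 574.8 CPM in the control libraries. The KO1 libraries gave 194.0, 224.9 and 217.6 CPM and the KO2 libraries 380.5, 350.5, 501.2 and 342.3 CPM. The 3 groups did not overlap, with KO2 between control and KO1 and its replicate 3 nearest to control. The difference of the KO1 from the control mean was -340.7 CPM, the largest of the 10 in CPM. On the log2 scale its change of -1.38 ± 0.18 (SE) ranked below those of Klf9 and Klf11, so the premise that Klf6 falls most holds for the CPM difference and not for the fold. For KO2 the fitted value was -0.49 ± 0.17, given without a test since Klf6 led to the choice of the family.

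The bases before the Klf6 start are shown because Klf6 is the most abundant factor and its promoter window held more CCAAT boxes than any other member's. Promoter windows (RefSeq, GRCm38.p6, 250 bases before to 50 after the start) were matched for 8 members, not for Klf5 or Klf10. Printed is the stretch ahead of both the RefSeq and the GENCODE start, on the plus strand at chr13:5861239-5861481, with capitals for the sites CACCC (or GGGTG), for the GC box GGGCGG (or CCGCCC) and for the CCAAT box (or ATTGG), on either strand.
Klf6: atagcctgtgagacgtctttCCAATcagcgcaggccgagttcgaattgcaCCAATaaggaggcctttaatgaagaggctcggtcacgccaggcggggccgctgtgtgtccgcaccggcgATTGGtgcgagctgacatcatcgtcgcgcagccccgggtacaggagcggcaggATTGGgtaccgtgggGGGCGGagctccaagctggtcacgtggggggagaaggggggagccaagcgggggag
It held 4 matches to the CCAAT box, 1 to the GC box and 0 to CACCC. Over the whole 300-base windows, the CCAAT box was found in 4 of the 8 member promoters and in 37.4% of all 32851 promoters, the GC box in 7 of 8 and 35.7%, and CACCC, the core of Kruppel-like factor sites, in 5 of 8 and 57.5%. GC content ranged from 58.3% (Klf7) to 77.7% (Klf11), above the median of all promoters, 52.7%, in all 8. A letter match describes the window and is no evidence of binding.

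Klf9, a corepressor-recruiting factor induced by thyroid hormone and glucocorticoid (chr19:23141226-23168134, plus strand), had the largest negative log2 fold change of the 10 in KO1. Control libraries read 69.6 and 75.1 CPM, against 19.4, 22.8 and 15.6 in KO1 and 18.9, 32.6, 28.4 and 36.4 in KO2. No knockout library exceeded 36.4 CPM, far from the lower control. On the log2 scale KO1 differed by -1.91 ± 0.27 (SE), to 26.6% of control. In KO2 Klf9 fell to 40.2% of control (-1.32 ± 0.25, edgeR quasi-likelihood adjusted p = 0.0069, lower in 4 of 4 libraries). This value, like those of Klf3 and Klf5 below, shares its control libraries with the choice of members. The Klf9 window is printed beside this result because its CCAAT count of 3 came next after Klf6 (chr19:23140976-23141225, plus strand, capitals as above).
Klf9: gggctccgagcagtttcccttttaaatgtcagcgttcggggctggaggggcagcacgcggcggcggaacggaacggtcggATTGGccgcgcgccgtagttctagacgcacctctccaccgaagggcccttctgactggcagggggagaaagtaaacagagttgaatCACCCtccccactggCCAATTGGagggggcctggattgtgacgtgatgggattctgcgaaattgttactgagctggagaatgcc
It held 1 CACCC and 0 GC boxes, and adjoining capitals mark overlapping matches.

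Klf3, which silences genes through CtBP and restrains adipogenic and erythroid programs, sat at about the same lower level in both clones. It read 243.0 and 206.7 CPM in control, 119.4, 122.4 and 86.6 in KO1, and 92.4, 106.4, 111.2 and 116.5 in KO2. No knockout library came near the lower control, and KO1 and KO2 overlapped each other. Fitted log2 differences were -1.04 ± 0.18 for KO1 and -1.08 ± 0.17 for KO2 (SE). The fall to 47.4% of control in KO2 was called (edgeR adjusted p = 0.00355), with the same limit on its controls. Klf3 (chr5:64803388-64832901, plus strand) overlaps the opposite-strand gene Gm20033, and with a strand setting that the sources used here do not give, reads of the overlap cannot be assigned to either. Its promoter is the window with most matches, 5 CACCC sites and 6 GC boxes in 300 bases at 76.7% GC, of which the stretch ahead of the annotated gene (chr5:64803271-64803387) is printed.
Klf3: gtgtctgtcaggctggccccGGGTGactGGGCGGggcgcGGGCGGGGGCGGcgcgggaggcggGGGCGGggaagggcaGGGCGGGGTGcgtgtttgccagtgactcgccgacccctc

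Klf5, an activator that drives proliferation in basal and intestinal epithelium (chr14:99298691-99315036, plus strand), read 100.3 and 98.1 CPM in control, 33.0, 50.5 and 41.4 in KO1 and 45.3, 56.3, 44.7 and 60.1 in KO2. All 7 knockout libraries lay below both controls, with the 2 clones overlapping. Its log2 difference from control came to -1.25 ± 0.21 for KO1 and -0.94 ± 0.20 for KO2 (SE), where it fell to 52.0% of control (edgeR adjusted p = 0.00996). Klf7, an activator known from neuronal development, read 45.8 and 40.7 CPM in control, 21.1, 34.6 and 35.0 in KO1 and 33.9, 25.3, 34.0 and 29.2 in KO2. Neither clone overlapped control, but the difference was smaller, -0.52 ± 0.24 in KO1 and -0.50 ± 0.23 in KO2, and did not pass in KO2 (edgeR adjusted p = 0.147). Without KO1 replicate 1, the lowest of the KO1 libraries, the KO2 estimate stayed at -0.50 and its adjusted p was 0.0867, since all groups share 1 estimate of spread. Klf7 (chr1:64029447-64122282, minus strand) overlaps the opposite-strand genes Gm26649 and Gm13748.

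Klf4, the reprogramming factor that supports epithelial differentiation (chr4:55527143-55532466, minus strand), read 27.2 and 37.7 CPM in control and 11.1, 18.1 and 10.6 in KO1. Its KO2 libraries read 30.4, 7.45, 14.3 and 3.90 CPM, a 7.79-fold range in 1 clone. Replicate 1 lay within the control range and the other 3 below it. The KO2 log2 fold change of -1.21 ± 0.63 did not pass (edgeR adjusted p = 0.191), and without KO2 replicate 1 it was -1.92 with an adjusted p of 0.0304, whereas without KO2 replicate 4, the lowest library, it was -0.90 with an adjusted p of 0.236. In KO1 the change was -1.29 ± 0.67 (SE).

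Klf2, an activator that responds to fluid shear and restrains inflammatory genes in endothelium (chr8:72319033-72321656, plus strand), was the most variable member within KO1 and within KO2 by coefficient of variation (45.0% and 111.7%), though not in control (2.62%, against 22.9% for Klf4). It read 8.23 and 8.54 CPM in control, 2.45, 3.38 and 5.84 in KO1 and 23.3, 8.002, 86.9 and 13 in KO2. KO2 replicate 3 stood 10.9-fold above KO2 replicate 2, with 3843 counts against 190, whereas all 3 KO1 libraries lay under control. Against control the log2 values were -1.11 ± 0.84 for KO1 and 1.97 ± 0.88 for KO2 (edgeR adjusted p = 0.137, higher in 3 of 4 libraries). Without KO2 replicate 3 the KO2 value was 0.81, and without KO2 replicate 2 it was 2.29 with an adjusted p of 0.0567. Fos, an immediate-early gene, moved along in the same libraries, at 186, 15.2, 330.3 and 93.0 CPM in KO2 and 71.1 and 70.4 in control; its part in the Klf2 values was not tested.

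Klf10 was the only member above control in KO1. This transforming growth factor beta inducible early gene (chr15:38291463-38300706, minus strand) read 55.9 and 56.0 CPM in control, 87.9, 88.1 and 83.1 in KO1 and 45.6, 53.7, 54.3 and 57.7 in KO2. KO1 stood clear of every other library at 154% of control (log2 fold change 0.63 ± 0.15), and KO2 overlapped control (-0.08 ± 0.14, edgeR adjusted p = 0.707). Klf11, a close relative of Klf10 that also recruits Sin3a (chr12:24651274-24662789, plus strand), read 15.8 and 18.7 CPM in control, 4.89, 8.03 and 3.49 in KO1 and 15.1, 5.77, 16.1 and 14.6 in KO2. KO1 and KO2 replicate 2 were low, and the other 3 KO2 libraries lay close to the lower control. For Klf11 the fit gave -1.66 ± 0.46 (KO1) and -0.42 ± 0.43 (KO2, log2; edgeR adjusted p = 0.508), and without KO2 replicate 2 the KO2 value was -0.18.

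Klf13, known for activating the chemokine gene Ccl5 in T cells, had its groups in the order KO1, control, KO2. It read 51.3 and 51.9 CPM in control, 44.0, 49.9 and 45.6 in KO1 and 67.7, 53.7, 66.2 and 102.2 in KO2. All KO1 libraries were under and all KO2 libraries over both controls, with log2 fold changes of -0.15 ± 0.24 and 0.49 ± 0.24 (SE), the latter at an edgeR adjusted p of 0.163. Without KO2 replicate 2 the KO2 value was 0.61 with an adjusted p of 0.0605, and without KO2 replicate 4, the highest library, it was 0.28 with an adjusted p of 0.244. Klf13 (chr7:63886351-63938915, minus strand) overlaps Gm27252 and E030018B13Rik on the opposite strand. Between the clones, every KO2 library stood above every KO1 library for Klf2, Klf6 and Klf13 and below for Klf10, a description only since KO1 values entered the choice.

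**Figure D3:**
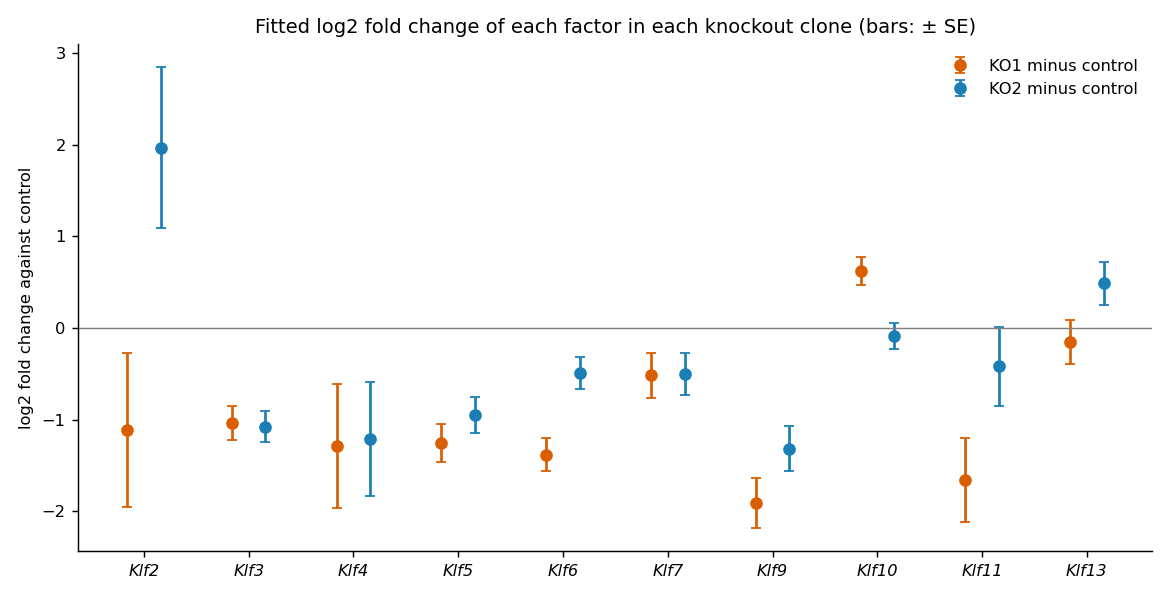
Points are fitted log2 fold changes against control for KO1 and KO2 with bars of ± SE, per factor. Klf3, Klf5, Klf7 and Klf9 lie below 0 in both clones, the points of Klf3 and Klf7 nearly level between them, Klf6, Klf9 and Klf11 lie lower in KO1 than in KO2, Klf10 is positive in KO1 and near 0 in KO2, and Klf2 has the widest bars.

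The genes most like Klf6 in pattern, by Pearson correlation of log2(CPM + 1) over the 9 libraries taken over genes that averaged 10 CPM or more, were Dync1i2 (r = 0.989), Plekhh1 (0.972), Rbpj (0.971), Susd1 (0.962) and Sox12 (0.962). The 9 points fall into 3 groups of libraries, so the correlation mainly repeats the group order. Rbpj, the DNA-binding partner of Notch, read 156.7 to 173.3 CPM in control, 94.8 to 97.2 in KO1 and 120.6 to 140.0 in KO2. In bulk RNA, fewer cells of a kind and less RNA per cell cannot be told apart for any of these genes.

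Of the 7 other Kruppel-like factors, 4 were tested and 0 were called in either clone by edgeR, with 0 at an unadjusted p under 0.05. DESeq2 called 1 of them, Klf12, lower in KO1, a gene with 36 counts or fewer in 8 of the 9 libraries. Klf8, which like Klf3 recruits CtBP, read 10.7 and 8.51 CPM in control, 5.34, 0 and 4.27 in KO1 and 14.4, 12.04, 5.07 and 4.35 in KO2. KO1 replicate 2 held 0 Klf8 counts where replicates 1 and 3 held 335 and 158, so that library stands apart from its own group for this gene. Klf16, a Sin3a-recruiting factor, read 40.2 ± 7.09 CPM in KO1 and 49.4 ± 5.31 in KO2 beside 51.0 ± 0.52 in control (SD). Of 5 related Sp factors tested, Sp3, which competes with Sp1 for GC boxes, fell in both clones (-0.78 ± 0.16 and -0.47 ± 0.15, edgeR adjusted p = 0.01 and 0.0548) and the other 4 were not called by edgeR. DESeq2 called 2 lower in KO1, adding Sp4, which had an unadjusted p under 0.05 in edgeR.

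Among 11 cofactors of the family, KO1 had 1 higher and 1 lower and KO2 had 0 called by edgeR, with 2 higher and 1 lower at an unadjusted p under 0.05 and 1 higher by DESeq2. The histone deacetylase Hdac3 rose in KO1 (log2 fold change 0.68 ± 0.17, edgeR adjusted p = 0.0198) and the acetyltransferase Crebbp fell (-0.56 ± 0.14, adjusted p = 0.0183). Crebbp read 72.1 to 73.4 CPM in control and 47.2 to 51.4 in KO1. Of 3 ubiquitin ligase genes that act on Kruppel-like factors, Wwp1, which marks Klf5 for degradation, fell in KO1 (-0.80 ± 0.19, edgeR adjusted p = 0.0155) and read 0.10 ± 0.18 in KO2.

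The 12 genes taken as inputs to the family, receptors and factors known to induce its members, had 1 higher and 3 lower in KO1 and 0 higher (0 by DESeq2 and 0 at an unadjusted p under 0.05) and 3 lower in KO2. The others called lower, named after their values were seen, were Mef2d and Tgfbr1 in KO1 and Nr3c1, the glucocorticoid receptor, and Smad3 in KO2. Mef2a, which induces Klf2 and Klf4 downstream of the ERK5 kinase, fell in both (-0.72 ± 0.17 and -0.65 ± 0.16, edgeR adjusted p = 0.016 and 0.0184). It read 107.5 and 115.4 CPM in control, 72.4, 74.2 and 56.7 in KO1 and 63.9, 71.9, 68.0 and 80.02 in KO2, with no overlap with control. Tgfbr2, a receptor of the growth factor that induces Klf10, rose in KO1 only among the calls (1.28 ± 0.27, edgeR adjusted p = 0.011), reading 352.7, 305.8 and 299.5 CPM beside 142.0 and 121.5 in control. In KO2 its change was 0.19 ± 0.25, and the difference between clones itself was -1.09 (edgeR adjusted p = 0.0175).

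Of 14 genes listed as reported targets of the family, 13 were tested, with 4 higher and 1 lower in KO1 and 3 higher and 2 lower in KO2. Ccnd1, the G1 cyclin D1, rose from 536.5 and 355.2 CPM in control to 1365 to 3017 in KO1 and 998 to 1757 in KO2 (log2 fold change 2.36 ± 0.38 and 1.67 ± 0.35, edgeR adjusted p = 0.00337 and 0.0107). Ccnb1, the mitotic cyclin B1, also rose in both clones (0.75 ± 0.18 and 1.00 ± 0.17, edgeR adjusted p = 0.0162 and 0.00469). Smad7, an inhibitor of transforming growth factor beta signalling, fell in both (-1.15 ± 0.15 and -0.47 ± 0.14, edgeR adjusted p = 0.0014 and 0.0397). These lists hold genes set down from general knowledge of the family, with earlier results of these data known. The counts stand beside 15.0% to 16.5% of all genes called in a direction. Some list shares are above and some below that range, and no result about a list is read from them.

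Several Kruppel-like factors are induced as immediate-early genes, so 12 such genes were counted beside them. In KO1 0 were higher, also by DESeq2 and at an unadjusted p under 0.05, and 5 lower, and in KO2 2 were higher and 4 lower. Of all genes tested, 15.9% were called higher and 15.7% lower in KO1, and 16.5% and 15.0% in KO2. The list was written with earlier results known, so no result about it is read from these counts. Atf3, a stress-induced repressor, fell furthest of the 12, from 301.0 and 362.7 CPM in control to 15.5 to 28.5 in KO1 and 13.5 to 69.0 in KO2 (-3.92 ± 0.60 and -3.38 ± 0.53, edgeR adjusted p = 0.00287 and 0.00342). Egr1, a serum-induced zinc finger factor, fell in both (-1.52 ± 0.43 and -1.14 ± 0.40, edgeR adjusted p = 0.0331 and 0.0698). Summed over the 12 genes the level was 2442 to 2475 CPM in control, 940 to 1315 in KO1 and 2171, 1266, 2255 and 1889 in KO2. The sum was thus below both controls in every knockout library, and lowest in KO1, the clone with the lower Klf6, and in KO2 replicate 2. That KO2 library had the fewest gene counts of all and the lowest Klf2, Klf7, Klf11 and Klf13 of its clone. In KO2 the lowest Klf4 and Klf6 were in replicate 4, the lowest Klf3, Klf9 and Klf10 in replicate 1 and the lowest Klf5 in replicate 3. The part of these sums in the Kruppel-like factor values was not tested.

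**Figure D4:**
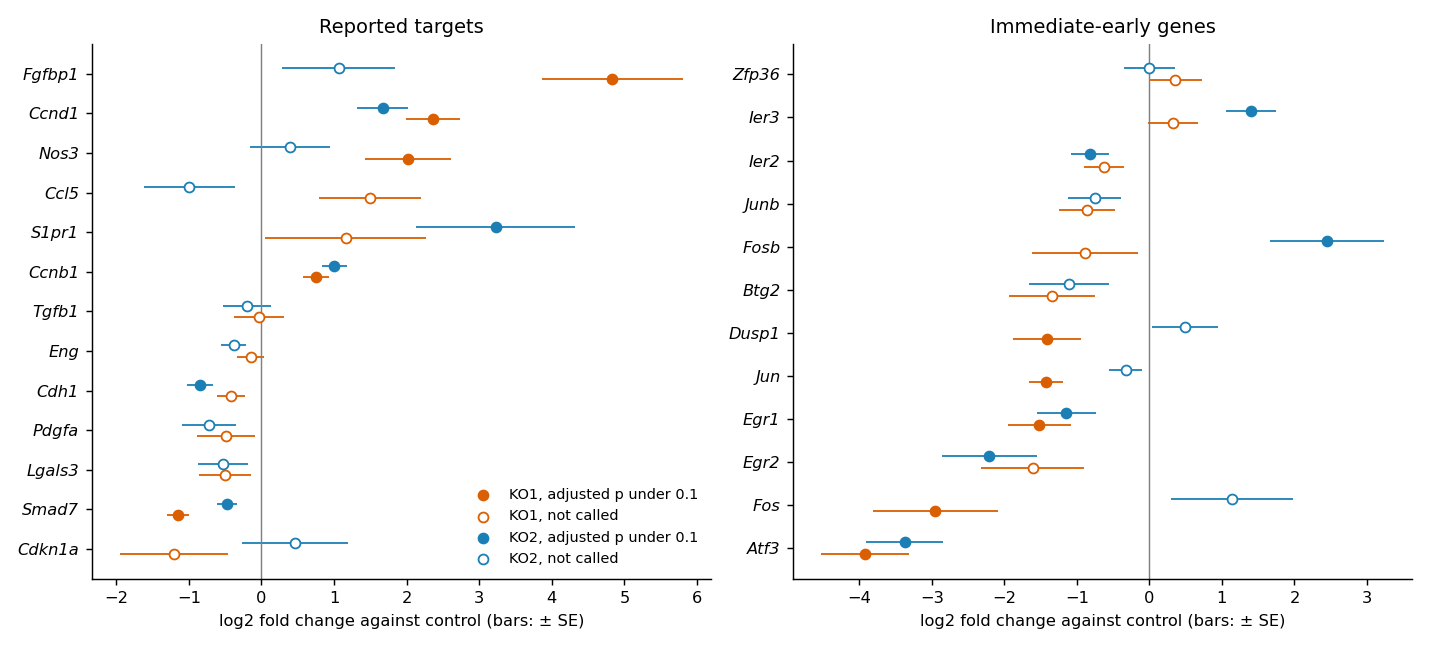
Points are log2 fold changes against control with bars of ± SE for the 13 tested reported targets and the 12 immediate-early genes, filled where the adjusted p is under 0.1. Ccnd1 and Ccnb1 lie above 0 and Smad7, Egr1 and Atf3 below 0 in both clones, while Fos falls in KO1 and is not called in KO2.

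Chromatin isolation by RNA purification (ChIRP-seq) had been used to list DNA recovered with MaTAR25 by 14 biotinylated oligos, used as an odd pool, an even pool or together as a total pool. Which oligo was in which pool was taken here from the oligo numbers, since the probe list gives no pools, and every match to an odd or even pool rests on that assignment. Each list pools its replicates and was called against a Ppib pulldown, so it has no replicate error. By nearest promoter, 45 peak calls in the 4 lists belonged to 7 of the 10 factors, and Klf6, Klf9 and Klf13 had none. The even pool held peaks at 2 factors, the odd pool at 5, the total pool in 4T1 cells at 5 and the total pool in MMTV-Neu-NDL cells (a HER2-type mouse mammary tumor line) at 4 of 10. The same shares over 14949 genes tested and annotated were 53.2%, 52.7%, 59.9% and 58.3%, so the counts at the factors were lower by this assignment. Counting instead any peak over a gene or within 10 kb of it gave 6, 8, 8 and 8 of 10 beside 67.1%, 67.7%, 76.1% and 74.6%, which turns the direction in all but the even list, and no difference from other genes is read from 10 factors. By that count Klf9 and Klf13 had a peak in all 4 lists and Klf6 in the odd and the MMTV-Neu-NDL list.

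Klf3 held 26 of the 45 calls, 8 in the even, 3 in the odd, 9 in the 4T1 total and 6 in the MMTV-Neu-NDL list. Most of them lay outside the gene, at -37.4 to 75.9 kb from its start. Those before the start were annotated as intronic although outside Klf3. Over all factors, 12 of the 45 calls lay inside the factor, so the Klf3 number reflects assignment to the nearest promoter. Its highest scoring peak lay inside the gene, in the last exon of a retained-intron transcript that is intronic in the full-length one, with a score of 1434 in the odd list (chr5:64824124-64824873, rank 279 of 61311), 448.2 in the 4T1 total and 367.8 in the MMTV-Neu-NDL list. The even list had no peak there. A second Klf3 peak, beyond the 3' end of the gene (chr5:64835207-64835831 in the total list), scored 221.0 in the total and 175.2 in the even list and was not in the odd list. Klf7 had an intronic peak with a score of 217.3 in the odd and 48.3 in the 4T1 total list only.

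These 3 peaks, and an intronic Klf11 peak of the odd list with a score of 19.6 (chr12:24652829-24653328), are shown because each contains a run of letters found in an oligo assigned by its number to the pool that recovered it. The longest exact match to an oligo on either strand, searched from 12 bases up, is in capitals, and each 80-base window is on the plus strand of GRCm38.
Klf3, inside the gene, chr5:64824353-64824432: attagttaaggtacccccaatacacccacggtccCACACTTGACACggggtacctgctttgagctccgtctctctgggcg
Klf3, beyond the gene, chr5:64835454-64835533: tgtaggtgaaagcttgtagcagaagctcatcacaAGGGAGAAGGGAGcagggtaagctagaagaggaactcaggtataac
Klf7, intron, chr1:64116591-64116670: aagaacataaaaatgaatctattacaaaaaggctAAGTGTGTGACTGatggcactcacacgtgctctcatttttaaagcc
Klf11, intron, chr12:24652946-24653025: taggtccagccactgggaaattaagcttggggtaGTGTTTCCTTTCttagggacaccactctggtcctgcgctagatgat
MaTAR25-oligo5: GAAAGGAAACACCCAGGTCA
MaTAR25-oligo9: CAGTCACACACTTGACACAT
MaTAR25-oligo12: AATAGGGAGAAGGGAGGCTC
The first window matches 12 bases of the odd-numbered oligo 9 as written, the second 13 bases of the even-numbered oligo 12 as written, the third 13 bases of oligo 9 as its reverse complement and the fourth 12 bases of the odd-numbered oligo 5 as its reverse complement. Of the 45 calls, 8 held such a match, and none was longer than 13 of the oligo's bases. Over all peaks of the even, odd, 4T1 total and MMTV-Neu-NDL lists, 19.8%, 23.8%, 24.2% and 23.6% held a match to any oligo. No excess of matches is thus read at the factors. Over whole lists, 18.0% of odd-list peaks held a match to an odd-numbered oligo and 6.10% to an even-numbered one, whereas even-list peaks held 2.02% and 18.0%. Peaks of either single pool thus held matches to that pool's oligos in a larger share than to the other pool's, and whether DNA was recovered by the oligos directly or through MaTAR25 was not tested.

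The remaining factors had few and mostly low peaks. Klf5 had an intergenic peak past its 3' end with a score of 252.3 in the 4T1 total and 329.6 in the MMTV-Neu-NDL list and no oligo match. Klf2 had a peak about 5 kb before its start in the even, 4T1 total and MMTV-Neu-NDL lists, scoring 108.9, 86.3 and 72.5. Klf4, Klf10 and Klf11 peaks scored 36.3 or less.

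**Figure D5:**
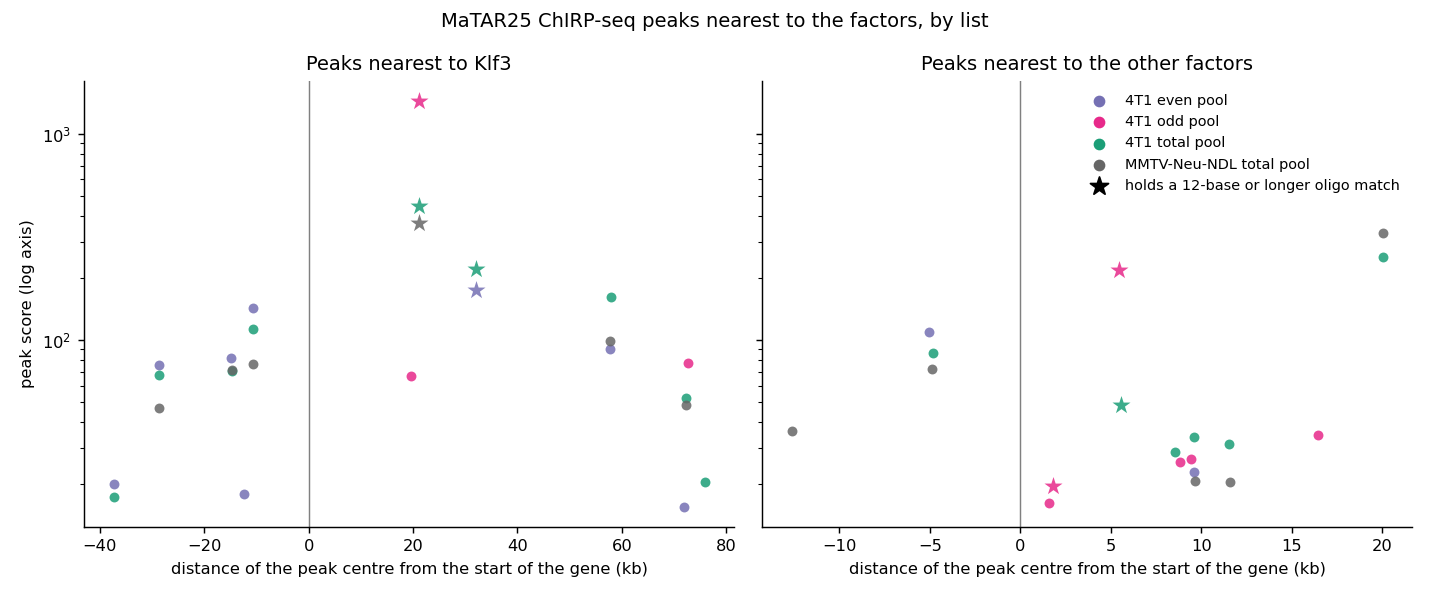
Points are peak calls nearest to a member, by distance of the peak centre from the start of the gene in kb (horizontal) and peak score (vertical, log axis), coloured by list, with stars for calls that hold an oligo match of 12 bases or more. The highest point is the odd-list Klf3 peak at 1434, and the highest scoring Klf3 and Klf7 calls are stars.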

How the data were processed

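The authors counted single-end poly(A) reads per gene with STAR and HTSeq on GRCm38 and GENCODE vM5, and the deposited counts were used as whole-number read counts, without the reads assigned to no gene. In the file of KO2 replicate 2 the genes recur 3 times with equal values, and 1 copy was used. Counts were tested with edgeR 4.0.16 in R 4.3.3 (TMM, filterByExpr, quasi-likelihood, Benjamini-Hochberg over 15023 genes, threshold 0.1) in 1 fit of the 3 groups, tested on simulated data. CPM use TMM-scaled library sizes, and RPKM divide by GENCODE vM21 exon lengths. The ChIRP lists give each peak's deposited peak score as the authors' HOMER pipeline wrote it, after Bowtie2 mapping to mm10, and its scale is not stated. The DESeq2 alternative used version 1.42.0.

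Members and gene lists were chosen with earlier results of these data known. From each list up to 4 genes are named, the 2 with the largest change in each direction among those called in both clones, then those called in 1 clone. Klf8, Klf16, Fos and the CCAAT motif were singled out after their values were seen. Alternatives were DESeq2, RLE size factors, other filters, the 2 groups alone, a replicate block, each library left out, a threshold of 0.05 and both clones as 1 group, and for peaks and promoters other windows and a score minimum of 100.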

Additional observations from a re-analysis of the deposited data

Results flagged for a closer look

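Klf11 in KO2 replicate 2 (5.77 CPM) lay far below the other 3 KO2 libraries (14.6 to 16.1 CPM), with a gap of 0.858 of the group's range against a critical value of 0.829. Egr1 was low in the same library, at 84.5 CPM beside 278.3 to 315.5. Such a gap is found in about 1 of 20 groups by chance, and 21 named genes were looked at. Klf13 lay below control in every KO1 library and above it in every KO2 library, a difference between the clones of 0.64 on the log2 scale that was not tested, since members were chosen on KO1. For list genes the difference KO2 minus KO1 was tested with edgeR and passed for Crebbp (0.54, adjusted p = 0.0225), Wwp1 (0.91, 0.0124), Tgfbr2 (-1.09, 0.0175) and Smad7 (0.68, 0.0149).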

How the results depend on the processing

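The fall of Klf3, Klf5 and Klf9 in KO2 kept its direction and its side of the threshold in every alternative that was tested. The fit with KO1 and KO2 as 1 group gave values without a test. The count of factors called lower in KO2 was 3 in each tested alternative, except that leaving out 1 library gave 3 to 4, with Klf7 added without KO1 replicate 1 and Klf4 without KO2 replicate 1. Klf2 was called higher without a filter on low counts (adjusted p = 0.0743) and, like Klf13, without KO2 replicate 2. With KO1 and KO2 as 1 group the log2 fold change was -0.81 for Klf6, -0.83 for Klf11, 0.26 for Klf10, 0.25 for Klf13 and 1.28 for Klf2. Without KO2 replicate 3, Klf2 in KO2 was 0.81 beside 1.97.

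Over all genes, 4750 were called in KO1 and 4724 in KO2. Leaving out 1 library gave 1482 to 5661 and 1366 to 5352. The low ends came without control replicate 1 or 2 (1482 and 1764 in KO1, 1366 and 1456 in KO2), where the lone control is assumed to vary like the other groups and fewer samples enter the fit. A fit of the 2 groups alone called 7752 in KO1, and the cause was not tested. Same-numbered libraries did not deviate together (r of deviations -0.15 to 0.04), and the main fit used no pairing. Differently numbered libraries were not set beside them and the groups are small, so this check cannot exclude a pairing. With a replicate block 3988 and 3689 genes and the same 3 factors were called, and the uncalled KO2 values were 1.11 for Klf2, -0.83 for Klf4 and 0.26 for Klf13.

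Among the lists, inputs called lower in KO1 went from 3 to 1 without a filter, 1 other Kruppel-like factor was called lower in KO1 by DESeq2, and Sp factors called lower in KO1 went from 1 to 2 by DESeq2 and without a filter. Members with a peak numbered 2, 2, 2 and 2 at a score of at least 100 (even, odd, 4T1 total and MMTV-Neu-NDL). Of the genes tested and annotated, 18.6%, 23.5%, 26.2% and 22.7% had such a peak, so these counts are no result about the members. Within 10 kb the members numbered 6, 8, 8 and 8, beside 2, 5, 5 and 4 in the main count. In the 150 bases nearest the start, CACCC was in 4 and GGGCGG in 4 of the 8 member promoters, beside 36.1% and 28.8% of all promoters. The KO2 changes of Klf2 and Klf4, whose SEs were 0.88 and 0.63, were not resolved although they were larger than the called change of Klf5. Their coefficients of variation were 111.7% and 83.8% in KO2, beside 2.62% and 22.9% in the 2 control libraries. The called factors were tested against the same 2 control libraries.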

Other observations

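Among the reported targets of the family, Fgfbp1, an activator of fibroblast growth factors known as a target of Klf5, stood at 11.3 and 8.05 CPM in control, at 289.6, 253.6 and 287.1 in KO1 and at 18.4, 3.16, 48.3 and 10.9 in KO2. It was chosen after its values were seen. Every KO1 library was above every other library, with a log2 fold change of 4.83 ± 0.97 (SE, edgeR adjusted p = 0.00861), and the KO2 libraries overlapped control (1.07 ± 0.78, adjusted p = 0.351). Klf5 itself was lower in the same KO1 libraries. Fosb, an AP-1 subunit also picked after its values were seen, rose in KO2 (2.45 ± 0.79, edgeR adjusted p = 0.0508), with 238.9, 28.1, 235.2 and 80.4 CPM beside 26.6 and 26.7 in control, and was lowest in the replicate where Klf2 and Klf11 were lowest.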
